A study of Arabidopsis thaliana with 30 samples.

Results

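Protoplasts sorted as positive for a SHP2 reporter (YFP-POS) were compared with protoplasts sorted without division by reporter (ALL-SORT). All came from Arabidopsis thaliana inflorescences. The comparison takes replicates 1 to 3 of each group and treats the replicate number as a pair. It uses 6 of the 15 libraries of the series, which are 12 of its 30 deposited samples because each library was run in 2 lanes. The series also holds 4 libraries of protoplasts sorted as reporter-negative (YFP-NEG) and 4 of intact inflorescences frozen unsorted (NO-SORT). Values of both are given beside some results.

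All groups came from plants of 1 genotype. These carried pSHP2-GAL4, in which the SHP2 promoter drives the yeast activator GAL4, and pUAS-3xYpet, a yellow fluorescent protein that GAL4 switches on. They had been crossed to pAP1-AP1::GR in an ap1; cal mutant background, so both groups lack normal AP1 and CAL and carry AP1 fused to a hormone-binding domain. The labels give no hormone treatment, plant age, floral stage or sorting gate. The reporter marks cells in which the SHP2 promoter had been active and in which the GAL4 relay had run, and these cells need not match those that held SHP2 RNA at harvest. The difference between the groups answers which RNAs were enriched or depleted in reporter cells when the other side had also been through cell wall digestion and sorting.

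SHP2 encodes a MADS-domain transcription factor that, with its close relative SHP1, acts in the carpel, the female organ of the flower. Carpels fuse at their margins to form the gynoecium, and its medial part gives rise to the style, the stigma, the transmitting tract and the placentae that bear ovules. In ap1; cal plants the shoot tip makes a large mass of inflorescence meristems, and restored AP1 activity lets these form flowers together. In a bulk library, fewer cells of a type and less RNA per cell cannot be told apart, which holds for every decrease described here.

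Libraries held between 13969774 and 19011084 counts in YFP-POS and between 12644721 and 15964336 counts in ALL-SORT replicates 1 to 3. Across genes, correlations of log2 CPM (counts scaled to a common library size) were 0.958 to 0.972 within YFP-POS, 0.966 to 0.977 within ALL-SORT and 0.888 to 0.950 between them. The design of the comparison fixed the numbers as pairs. Deviations from the group means correlated at 0.481, 0.469 and 0.486 between libraries of the same number. Between libraries of different numbers they correlated at -0.132 to -0.317. Deviations cancel out within each group, so positive values at the same number pull the others down. No reporter library shares the number of ALL-SORT replicate 4, which also stood apart from the other ALL-SORT libraries. Its 18 stress and wound response genes summed to 2318 CPM, against 7694 to 10320 CPM in ALL-SORT replicates 1 to 3 and 188 to 348 CPM in NO-SORT, and its epidermis markers to 4074 CPM, against 1576 to 2086 CPM in ALL-SORT replicates 1 to 3. It was left out of the comparison, and results that change with it are given with it.

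SHP2 (AT2G42830), the gene whose promoter drives the reporter, had 40.7, 37.3 and 34.9 CPM in YFP-POS replicates 1 to 3, against 7.58, 11.6 and 6.90 CPM in ALL-SORT. All 3 reporter libraries were above all 3 ALL-SORT libraries. The log2 fold change was 2.08 ± 0.16 (SE; adjusted p = 3.18e-07), and the pairs gave ratios of 5.37, 3.21 and 5.07. SHP2 overlaps AT2G42835 in the annotation. A call is an adjusted p under 0.05. All 14 marker genes of the medial gynoecium were called higher in YFP-POS, against 20.1% of all genes tested. The summed level of the 14 markers was 947 to 1465 CPM in YFP-POS, against 257 to 378 CPM in ALL-SORT. The label of the reporter cells thus matched the SHP2 level. The marker list includes SHP2 and was chosen with earlier results of these data known, so it is no independent check of the label.

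AP1 and CAL, related MADS genes that the genotype alters, had less RNA in the reporter cells. AP1 had 33.4, 33.4 and 59.9 CPM in YFP-POS, against 164, 169 and 178 CPM in ALL-SORT (log2 fold change -2.10 ± 0.13, adjusted p = 6.23e-08). CAL had 1.25, 1.28 and 1.11 CPM in YFP-POS, against 7.81, 4.93 and 7.23 CPM in ALL-SORT (log2 fold change -2.49 ± 0.33, adjusted p = 4e-05). The ranges of the groups did not overlap for either gene. AP1 counts may mix the fusion transgene and the mutant locus, which these values do not separate.

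Of 18441 genes tested, 8097 (43.9%) were called, with 3706 higher (20.1%) and 4391 lower (23.8%) in YFP-POS. Over all these genes the log2 fold change had a median of 0.02. Called changes of at least 2-fold were fewer and mostly decreases: 349 genes (1.89%) were higher and 2037 (11%) lower, 2386 (12.9%) in all. The imbalance widened with size. At 4-fold or more, 69 genes were higher and 654 lower, at 8-fold or more 3 and 140, and at 16-fold or more 0 and 39. ALL-SORT was sorted without division by reporter, so it can hold reporter cells. Any such cells limit how far an increase over ALL-SORT can reach, but not a decrease. Their part in the imbalance was not tested. Without the replicate number in the fit, 840 genes were called higher and 2242 lower, of which 280 and 1500 changed at least 2-fold. Without pair 2 the fit called 1774 genes higher and 3347 lower, of which 282 and 1658 changed at least 2-fold.

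**Figure D1:**
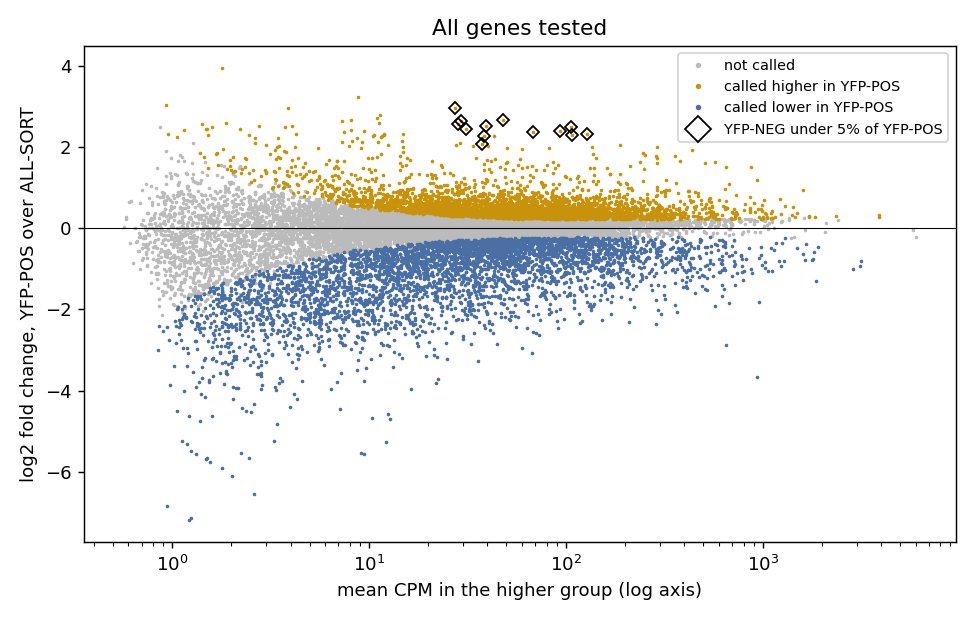
Each point is 1 of the 18441 genes tested; the horizontal axis is the mean CPM in the higher group (log axis) and the vertical axis the log2 fold change of YFP-POS over ALL-SORT. Gold points were called higher, blue points called lower and grey points not called; open diamonds mark the 13 genes whose YFP-NEG mean was under 5% of their YFP-POS mean, and decreases reach further from 0 than increases.

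Among genes averaging at least 10 CPM in the higher group, WAG2, encoding a protein kinase of the PINOID group that acts on auxin efflux carriers, had the largest increase. It had 25.5, 35.8 and 21.3 CPM in YFP-POS, against 3.48, 4.59 and 2.19 CPM in ALL-SORT, a 7.82-fold change (log2 2.97 ± 0.16, adjusted p = 2.94e-08). The genes named for the largest changes had to have group ranges that did not overlap and the same sign in all pairs, so their separation is part of how they were chosen. The 3 HECATE genes, which encode basic helix-loop-helix (bHLH) transcription factors of the style, stigma and transmitting tract, were all among the 12 largest increases.

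HEC1 had 47.5, 59.0 and 36.9 CPM in YFP-POS, against 8.59, 10.6 and 3.45 CPM in ALL-SORT (log2 fold change 2.66 ± 0.16, adjusted p = 6.12e-08). HEC2 had 89.5, 126 and 63.9 CPM in YFP-POS, against 17.1, 22.3 and 11.9 CPM in ALL-SORT (log2 fold change 2.40 ± 0.10, adjusted p = 5.49e-09). HEC3 had 28.6, 39.6 and 24.9 CPM in YFP-POS, against 4.57, 8.18 and 4.12 CPM in ALL-SORT (log2 fold change 2.44 ± 0.15, adjusted p = 6.2e-08). In all 3 genes replicate 2 was highest and replicate 3 lowest in both groups.

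The 250 bases before the annotated start of SHP2, of the 3 HEC genes and of WAG2 are shown because they stand before the gene that drives the reporter and before 4 of the genes with the largest increases. They were read 5′ to 3′ from the TAIR10.1 assembly with its RefSeq annotation, on the gene's strand, and no other annotated gene lies in them. The SHP2 window is chr2:17819864-17820113 (plus strand), HEC1 chr5:26765742-26765991 (plus), HEC2 chr3:18658378-18658627 (minus), HEC3 chr5:3027115-3027364 (minus) and WAG2 chr3:4799613-4799862 (minus). Capitals mark matches to the E-box CANNTG, the letters that bHLH proteins are known to bind.
SHP2: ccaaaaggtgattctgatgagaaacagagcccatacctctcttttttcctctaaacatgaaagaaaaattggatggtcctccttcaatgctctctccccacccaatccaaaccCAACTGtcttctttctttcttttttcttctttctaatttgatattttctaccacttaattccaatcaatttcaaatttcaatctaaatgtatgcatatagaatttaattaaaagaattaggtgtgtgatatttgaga
HEC1: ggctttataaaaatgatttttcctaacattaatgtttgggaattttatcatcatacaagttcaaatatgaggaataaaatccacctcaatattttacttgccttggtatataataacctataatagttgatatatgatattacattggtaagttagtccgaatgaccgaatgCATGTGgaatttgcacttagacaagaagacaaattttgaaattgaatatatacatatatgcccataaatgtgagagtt
HEC2: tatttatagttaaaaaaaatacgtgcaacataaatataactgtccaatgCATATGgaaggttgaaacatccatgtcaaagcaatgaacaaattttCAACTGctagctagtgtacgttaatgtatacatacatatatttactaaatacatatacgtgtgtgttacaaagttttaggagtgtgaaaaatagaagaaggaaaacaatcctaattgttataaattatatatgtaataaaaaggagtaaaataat
HEC3: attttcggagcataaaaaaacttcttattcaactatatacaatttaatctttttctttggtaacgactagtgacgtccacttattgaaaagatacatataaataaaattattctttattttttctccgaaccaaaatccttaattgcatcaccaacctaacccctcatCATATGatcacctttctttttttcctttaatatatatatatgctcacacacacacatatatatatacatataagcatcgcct
WAG2: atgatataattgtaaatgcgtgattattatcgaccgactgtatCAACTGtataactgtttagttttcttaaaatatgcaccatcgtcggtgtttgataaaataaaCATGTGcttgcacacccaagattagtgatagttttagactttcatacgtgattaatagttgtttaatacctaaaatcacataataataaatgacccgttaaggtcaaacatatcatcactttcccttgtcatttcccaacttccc

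The windows held 1 E-box each in SHP2, HEC1 and HEC3 and 2 each in HEC2 and WAG2. The letters are their own reverse complement, so both strands were covered, and every G-box CACGTG is also an E-box. An E-box was found in 52.9% of the 340 windows of genes at least 2-fold higher, in 58% of the 2036 windows of genes at least 2-fold lower and in 56.1% of the 18306 windows of all genes tested. None of the 5 windows held a G-box CACGTG, an auxin response element TGTCTC (either strand) or a CArG box, the element that MADS proteins bind. Those 3 motifs were found in 7.94%, 10.9% and 2.06% of windows of the genes at least 2-fold higher, against 7.61%, 10.6% and 2.69% of all windows. These are matches of letters in short windows, and the shares in the sets lay close to those of all genes.

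The other 8 genes among the 12 largest increases had changes of 5.17-fold to 6.9-fold. OFP4, of the OVATE family of transcriptional repressors, had 13.3, 10 and 10.3 CPM in YFP-POS, against 2.71, 1.89 and 0.925 CPM in ALL-SORT (6-fold). ABCG39, a member of the ABC transporter family, had 28.5, 26.3 and 30.4 CPM in YFP-POS, against 4.95, 4.8 and 4.04 CPM in ALL-SORT (5.95-fold). DOF4.7, a zinc-finger transcription factor of the Dof family, had 32.8, 52.1 and 32.6 CPM in YFP-POS, against 6.34, 7.43 and 5.72 CPM in ALL-SORT (5.75-fold), and it overlaps AT4G38005. PRN, a pirin of the cupin superfamily, had 108, 124 and 86.6 CPM in YFP-POS, against 17.8, 23.2 and 13.9 CPM in ALL-SORT (5.66-fold).

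Of these 8 genes, 4 have no symbol in the annotation used. Their changes were 6.9-fold for AT2G33850, 6.56-fold for AT5G17040, 6.24-fold for AT3G49270 and 5.17-fold for AT4G16230, with adjusted p of 1.38e-06, 7.73e-06, 3.54e-08 and 1.58e-08. AT3G49270 had 29.0, 33.8 and 25.6 CPM in YFP-POS, against 4.18, 5.41 and 4.12 CPM in ALL-SORT. In intact tissue it had 0.130, 0.487, 4.25 and 0.446 CPM (NO-SORT), of which replicate 3 reached the ALL-SORT range. WAG2 and PRN lay below their ALL-SORT ranges in all 4 intact libraries, at 0.326 to 0.948 CPM and 0.781 to 2.06 CPM in NO-SORT. So did HEC2 (4.11 to 7.76 CPM), HEC3 (0.650 to 0.977 CPM), DOF4.7 (0.725 to 1.78 CPM), ABCG39 (1.37 to 3.45 CPM) and AT4G16230 (2.40 to 4.76 CPM). The NO-SORT ranges of HEC1, OFP4 and AT2G33850 overlapped those of ALL-SORT, and AT5G17040 lay above its ALL-SORT range.

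**Figure D2:**
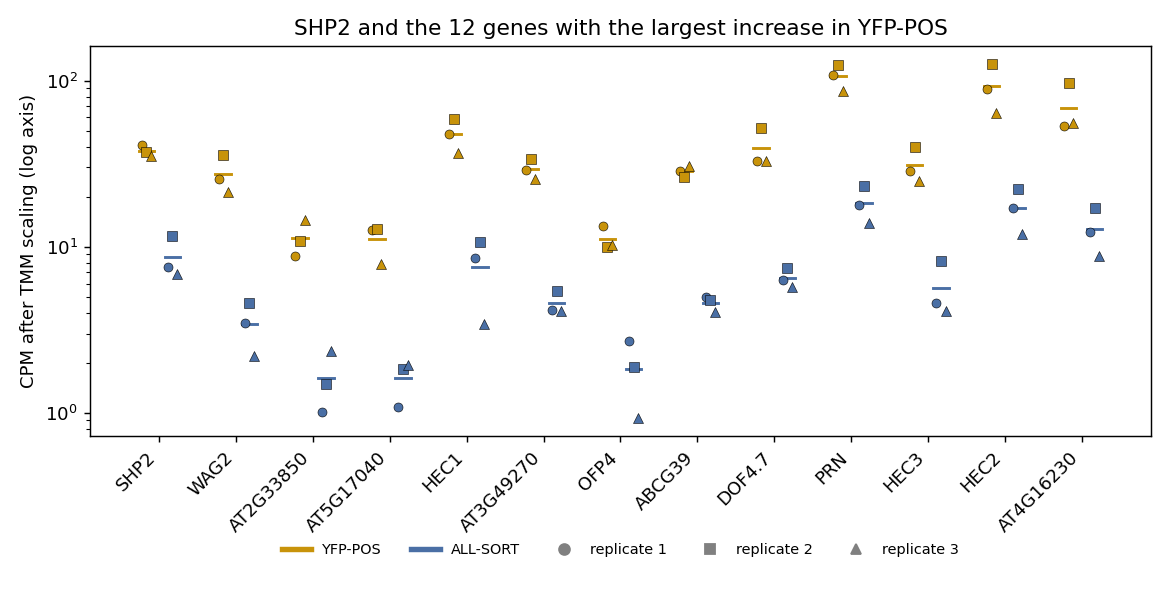
Points are CPM after TMM scaling (log axis) in each of 3 YFP-POS libraries (gold, left) and 3 ALL-SORT libraries (blue, right), bars are group means and symbols mark the replicate number. SHP2 and the 12 largest increases are shown, and a gap between the gold and blue points was required of the 12, though not of SHP2.

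Genes that were nearly absent from YFP-NEG show how far ALL-SORT fell short of YFP-POS. A set of 13 genes averaged at least 20 CPM in YFP-POS and under 5% of that in YFP-NEG. It held SHP1, SHP2, HEC1, HEC2, HEC3, STY1, WAG2, DOF4.7, PRN, ABCG39, MPL1, AT3G49270 and AT4G16230. Their median ratio of YFP-POS over ALL-SORT was 5.37 in pair 1, 5.49 in pair 2 and 6.24 in pair 3, with quartiles of 5.17 to 6.06, 4.84 to 5.67 and 5.70 to 6.46. ALL-SORT thus held 18.6%, 18.2% and 16.0% of the YFP-POS level. WAG2 had the highest ratio in pairs 1 and 2, at 7.32 and 7.78, and in pair 3 HEC1 had 10.7 and WAG2 9.76. These ratios are a description, since a high YFP-POS level helped choose the genes.

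By the same minimum of 10 CPM, the largest decrease was in ENODL20, an early nodulin-like protein of the plastocyanin type. It had 0.272, 0.560 and 0.186 CPM in YFP-POS, against 12.1, 13.2 and 11.5 CPM in ALL-SORT, a 38.3-fold decrease (log2 fold change -5.26 ± 0.34, adjusted p = 8.74e-08). These levels rest on 5, 7 and 3 counts in YFP-POS and 156, 196 and 137 counts in ALL-SORT. ABCB15, an ABC transporter, had no count in YFP-POS replicate 1 and 0.4 and 1.24 CPM in replicates 2 and 3, against 16.1, 7.5 and 14.8 CPM in ALL-SORT (adjusted p = 6.89e-06).

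Sugar exporters and myrosinases were also among the 12 largest decreases. SWEET8, a sugar exporter that pollen needs, had 1.36, 0 and 0.186 CPM in YFP-POS, against 12.2, 15.5 and 9.59 CPM in ALL-SORT (adjusted p = 9.51e-06). SWEET10, of the same family, had 1.63, 1.36 and 1.73 CPM in YFP-POS, against 18.2, 21.2 and 26.4 CPM in ALL-SORT (log2 fold change -3.82 ± 0.20, adjusted p = 2.42e-08). TGG1, a myrosinase that splits glucosinolates in specialised idioblast and guard cells, had 48.4, 57.2 and 134 CPM in YFP-POS, against 642, 787 and 1388 CPM in ALL-SORT (log2 fold change -3.67 ± 0.11, adjusted p = 2.91e-10). Replicate 3 was highest in both groups for TGG1, and its relative TGG2 also fell, to 1.14, 0.320 and 1.79 CPM in YFP-POS, against 6.58, 5.07 and 19.2 CPM in ALL-SORT.

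AGAL2, an alpha-galactosidase that overlaps AT5G08360, was 10.8-fold lower in YFP-POS. The others were AT1G27710, AT1G73890, AT3G53980, AT1G44970 and AT4G30460, with decreases of 25.4-fold, 15.7-fold, 13.1-fold, 9.66-fold and 9.39-fold. AT1G27710 overlaps AT1G27720.

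**Figure D3:**
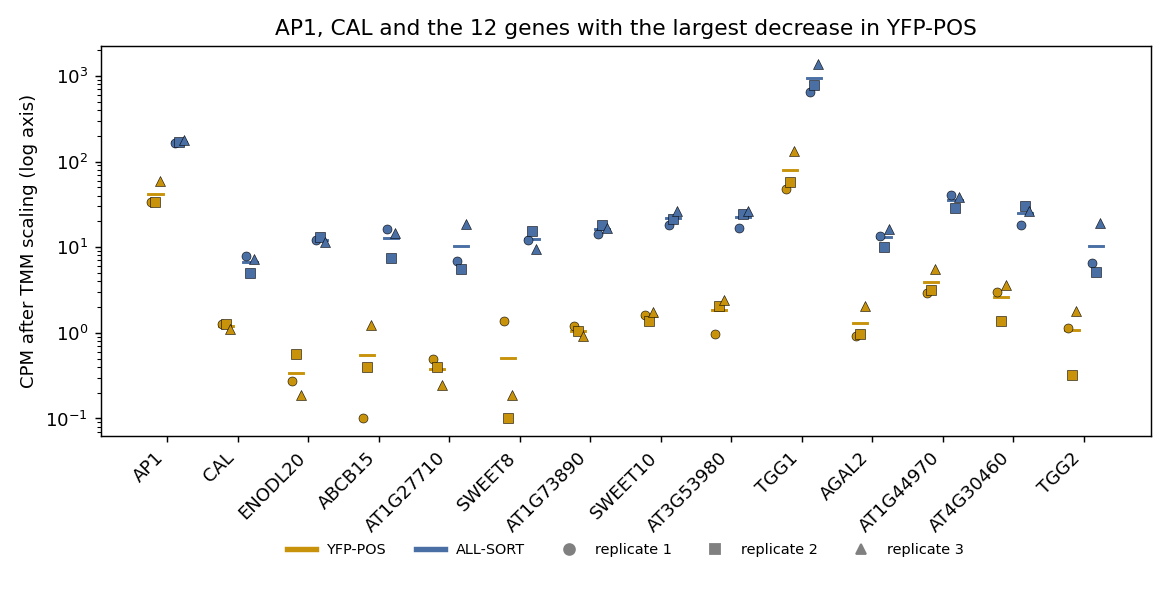
Points are CPM after TMM scaling (log axis) in each of 3 YFP-POS libraries (gold, left) and 3 ALL-SORT libraries (blue, right), with bars at the means; libraries at 0 CPM (ABCB15 replicate 1 and SWEET8 replicate 2 of YFP-POS) are drawn at 0.1. AP1, CAL and the 12 largest decreases are shown, and a gap between the gold and blue points was required of the 12, though not of AP1 and CAL.

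In the carpel and ovule MADS list of 8 genes, 4 were called higher and 1 lower, with a median log2 fold change of 0.37. The shares of all genes tested were 20.1% higher and 23.8% lower. SHP1, the relative of SHP2, had 124, 119 and 80.8 CPM in YFP-POS, against 24.2, 28.3 and 12.8 CPM in ALL-SORT (log2 fold change 2.30 ± 0.11, adjusted p = 1.58e-08). STK, the ovule identity member of the same clade, had 4.35, 2.16 and 2.54 CPM in YFP-POS, against 0.774, 0.676 and 0.589 CPM in ALL-SORT (log2 fold change 2.05 ± 0.46, adjusted p = 0.00264). AG, which specifies stamens as well as carpels, rose less, with 81.3, 85.8 and 93.1 CPM in YFP-POS, against 53.5, 53.3 and 57.3 CPM in ALL-SORT (1.53-fold, adjusted p = 6.59e-05). SHP1, STK and SEP1 overlap neighbouring loci.

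The SEPALLATA genes encode partners of these proteins in all floral organs. SEP1, SEP2 and SEP3 were not called, with log2 fold changes of 0.13 ± 0.09, 0.08 ± 0.08 and -0.21 ± 0.08 and groups that overlapped. SEP4 fell to 12.8, 11.3 and 17.3 CPM in YFP-POS, against 29.1, 31.8 and 43.9 CPM in ALL-SORT (log2 fold change -1.38 ± 0.12, adjusted p = 1.22e-06).

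Regulators of the carpel margin, style, stigma and transmitting tract rose together. Of 19 listed genes, 16 were tested, 15 were called higher and 0 lower, against 20.1% and 23.8% of all genes tested. The median log2 fold change of the list was 1.56. Without the replicate number 14 were higher, and 13 were higher with ALL-SORT replicate 4 added to that fit. The list was chosen with earlier results of these data known. IND, HAF and BEE3 stayed below the low-count filter, with at most 0.8 CPM in any library of the comparison. CRC, a YABBY factor of the carpel and nectary, had 289, 353 and 235 CPM in YFP-POS, against 75.1, 85.7 and 51.5 CPM in ALL-SORT (log2 fold change 2.01 ± 0.09, adjusted p = 7.83e-09). CRC overlaps AT1G69170.

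SPT, a bHLH factor of margin tissues that works with the HEC proteins, had 208, 261 and 167 CPM in YFP-POS, against 67.4, 77.2 and 64.2 CPM in ALL-SORT (log2 fold change 1.54 ± 0.10, adjusted p = 6.23e-08). ALC, its relative in fruit opening, rose by 0.49 ± 0.09 on the log2 scale (adjusted p = 0.000479). BEE1, another bHLH gene, had 7.67, 12.6 and 8.04 CPM in YFP-POS, against 1.24, 3.31 and 0.925 CPM in ALL-SORT (adjusted p = 1.89e-05). Within this family the HEC genes and BEE1 had larger changes than SPT and ALC, a difference between genes that was not tested.

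The style and stigma genes NGA1, NGA3 and NGA4, of the B3 family, had log2 fold changes of 1.48 ± 0.10, 1.56 ± 0.09 and 1.6 ± 0.12, and NGA2 had 0.94 ± 0.17. STY1, a zinc-finger activator of auxin synthesis in the style, had 127, 165 and 90.7 CPM in YFP-POS, against 24.1, 30.4 and 18.9 CPM in ALL-SORT (log2 fold change 2.33 ± 0.10, adjusted p = 5.49e-09). Its relatives SHI and STY2 rose by 1.56 ± 0.15 and 0.92 ± 0.16 on the log2 scale. LRP1 of the same family was the 1 tested gene of the list without a call, with 37.5, 57.4 and 58.1 CPM in YFP-POS, against 40.9, 45.5 and 55.7 CPM in ALL-SORT. NTT, a zinc-finger gene of the transmitting tract, rose by 0.63 ± 0.17 (adjusted p = 0.00903), but its adjusted p was 0.0687 without the replicate number.

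Auxin synthesis and transport genes were split by member. Of 17 tested, 8 were called higher and 4 lower (2 lower without the replicate number), with a median of 0.18. Among all genes tested, 20.1% were called higher and 23.8% lower. TAA1, which makes the precursor of auxin from tryptophan, had 271, 270 and 218 CPM in YFP-POS, against 69.6, 76.8 and 64.2 CPM in ALL-SORT (log2 fold change 1.80 ± 0.09, adjusted p = 1.58e-08). YUC4, which acts in the next step, rose by 1.23 ± 0.15, whereas YUC2 and YUC6 of the same enzyme family fell (-1.64 ± 0.28 and -1.75 ± 0.19).

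LAX1, an auxin influx carrier, had 222, 335 and 187 CPM in YFP-POS, against 60.0, 78.2 and 58.4 CPM in ALL-SORT (log2 fold change 1.85 ± 0.10, adjusted p = 2.34e-08). AUX1, LAX2 and LAX3, the other carriers of that family, were not called, with log2 fold changes of 0.18 ± 0.11, 0.18 ± 0.10 and 0.18 ± 0.29. Among efflux carriers, PIN7 rose by 0.95 ± 0.10, PIN3 was not called and PIN4 had -0.95 ± 0.26. The kinases that act on them were all higher: WAG2 as above, WAG1 by 1.19 ± 0.27 and PID by 0.46 ± 0.08. PIN4, TAR2 and PID lost their calls without the replicate number, with adjusted p of 0.0604, 0.0652 and 0.0699.

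Cytokinin genes gave 3 higher and 5 lower calls among 14 tested of 18, with a median of -0.15. Without the replicate number 1 was higher and 4 lower. The share called higher was near the 20.1% of all genes tested, of which 23.8% were lower. The response regulators that cytokinin induces were mixed. ARR4 had 14.1, 15.8 and 14.3 CPM in YFP-POS, against 38.6, 40.2 and 36.3 CPM in ALL-SORT (log2 fold change -1.43 ± 0.11, adjusted p = 4.42e-07). ARR5 and ARR9 also fell, with log2 fold changes of -2.11 ± 0.28 and -1.67 ± 0.16. ARR7 and ARR15 were higher, by 0.37 ± 0.13 and 1.01 ± 0.24, but had adjusted p of 0.142 and 0.0905 without the replicate number. CKX3, which degrades cytokinin, had 2.5, 4.64 and 3.03 CPM in YFP-POS, against 1.31, 0.946 and 0.673 CPM in ALL-SORT (adjusted p = 0.00631), and AHP6, an inhibitor of the signal, fell by 1.83 ± 0.32. The receptors AHK2, AHK3 and WOL were not called.

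Gibberellin genes gave 3 higher and 6 lower calls among 14 tested, with a median of -0.53, and 1 and 4 without the replicate number. Here too the share called higher was near the 20.1% of all genes, against 23.8% lower over all genes. The synthesis gene GA20OX1 had 0, 0.640 and 1.11 CPM in YFP-POS, against 3.09, 7.84 and 9.75 CPM in ALL-SORT (adjusted p = 2.58e-05), and GA20OX2 fell by 1.66 ± 0.36 on the log2 scale. RGL2, a DELLA repressor of the response, had 112, 118 and 83.2 CPM in YFP-POS, against 48.2, 46.4 and 35.9 CPM in ALL-SORT (log2 fold change 1.22 ± 0.09, adjusted p = 2.5e-07). The DELLA genes RGA and RGL1 were not called, GAI had 0.38 ± 0.09 and RGL3 had -0.92 ± 0.19. The receptor GID1A fell by 0.71 ± 0.09, and GID1B had 0.51 ± 0.10 and GID1C -0.51 ± 0.12. GAI, RGL3, GID1B and GID1C had adjusted p of 0.162, 0.0817, 0.0525 and 0.0588 without the replicate number.

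Boundary and meristem regulators moved both ways, with 6 higher and 9 lower among 20 tested of 21 and a median of -0.18. Without the replicate number 3 were higher and 7 lower. The all-gene shares with the replicate number were 20.1% higher and 23.8% lower. CUC2, a NAC factor of organ boundaries and carpel margins, had 43.6, 44.8 and 31.7 CPM in YFP-POS, against 17.6, 17 and 17.2 CPM in ALL-SORT (log2 fold change 1.15 ± 0.13, adjusted p = 8.32e-06), while its relatives CUC1 and CUC3 were not called. PAN, a bZIP activator of AG that overlaps neighbouring loci, and ANT, an AP2-type growth factor, rose by 0.90 ± 0.09 and 0.64 ± 0.08.

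Several homeobox genes of the meristem and stem, though not RPL and WUS, were lower. KNAT1 had 17.6, 17.9 and 39.1 CPM in YFP-POS, against 57.5, 58.8 and 71.8 CPM in ALL-SORT (log2 fold change -1.46 ± 0.14, adjusted p = 3.16e-06). KNAT2, KNAT6 and their BELL-type partner ATH1 fell as well, with log2 fold changes of -1.07 ± 0.14, -1.54 ± 0.14 and -1.54 ± 0.14. STM, the KNOX gene that maintains meristems, had 69.9, 88.3 and 75.1 CPM in YFP-POS, against 83.6, 92.8 and 110 CPM in ALL-SORT. Those groups overlapped, and its log2 fold change of -0.34 ± 0.10 had an adjusted p of 0.0136 with and 0.162 without the replicate number. CLV1, a receptor kinase of stem cell control, fell by 1.34 ± 0.10 on the log2 scale, WUS was not called, RPL had 0.27 ± 0.09 (adjusted p = 0.027, and 0.312 without the replicate number), and CLV3 lay under the filter.

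Lateral organ, valve and polarity regulators had 3 higher and 6 lower calls among 19 tested (3 and 3 without the replicate number, 1 and 3 with ALL-SORT replicate 4 added to that fit) and a median of -0.15. Over all genes tested 20.1% were called higher and 23.8% lower. FUL, the MADS gene of the valves, which are the lateral walls of the fruit, had 23.4, 28.1 and 41.2 CPM in YFP-POS, against 88.1, 99.7 and 88.0 CPM in ALL-SORT (log2 fold change -1.65 ± 0.13, adjusted p = 5.54e-07). YAB3 fell by 0.93 ± 0.12, and its abaxial partner FIL was not called, with 139, 140 and 173 CPM in YFP-POS, against 156, 163 and 150 CPM in ALL-SORT. Of the class III HD-ZIP genes of adaxial fate and vasculature, PHV rose by 0.51 ± 0.09, REV was not called and HB-8 fell by 1.66 ± 0.12. ETT, an auxin response factor that patterns the gynoecium, and KAN1, an abaxial factor, rose by 0.64 ± 0.10 and 0.64 ± 0.12. JAG, PHB and CNA lost their calls without the replicate number, with adjusted p of 0.226, 0.221 and 0.478.

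Among 4 tested of 5 ovule regulators, 1 was called higher and 1 lower, near the 20.1% and 23.8% of all genes tested. ATS, a KANADI-type gene of the ovule integuments, had 0.489, 0.880 and 1.05 CPM in YFP-POS, against 4.18, 3.45 and 3.70 CPM in ALL-SORT (adjusted p = 0.000815). TSO1 rose by 0.34 ± 0.08, with an adjusted p of 0.135 without the replicate number, BEL1 and HLL were not called, and INO lay under the filter.

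Floral meristem identity and flowering regulators were lower as a group: 11 of 14 tested were called lower and 1 higher. Their median was -1.57. The 11 include AP1 and CAL, which the genotype alters. Of all genes tested, 23.8% were called lower and 20.1% higher. Without the replicate number 10 of the list were lower and 1 higher. LFY, which switches on AP1 and floral organ genes, had 32.3, 34.1 and 40.8 CPM in YFP-POS, against 73.0, 78.8 and 83.8 CPM in ALL-SORT (log2 fold change -1.19 ± 0.09, adjusted p = 3.65e-07). TFL1, which keeps shoots from flowering, had 2.88, 2.24 and 7.36 CPM in YFP-POS, against 12.5, 14.5 and 40.5 CPM in ALL-SORT (log2 fold change -2.46 ± 0.18, adjusted p = 2.58e-07). Replicate 3 was highest in both groups for TFL1. UFO, SVP, AGL24, SOC1 and FD, further regulators of flowering and floral fate, had log2 fold changes of -2.13 ± 0.24, -2.14 ± 0.21, -1.66 ± 0.14, -1.27 ± 0.11 and -1.70 ± 0.16. TOE3, of the AP2 family, was the 1 gene called higher (log2 fold change 1 ± 0.21), and AP2 had an adjusted p of 0.0547 without the replicate number.

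Petal and stamen identity, tapetum and pollen wall genes had 9 lower and 3 higher calls among 14 tested of 20. Their median was -1.52. Of all genes tested, 23.8% were called lower and 20.1% higher. Without the replicate number 7 of the list were lower and 3 higher. With ALL-SORT replicate 4 added to that fit 7 were lower and 2 higher. The petal and stamen identity genes AP3 and PI were lower: AP3 had 45.3, 52.2 and 70.5 CPM in YFP-POS, against 164, 185 and 165 CPM in ALL-SORT (log2 fold change -1.68 ± 0.12, adjusted p = 1.6e-07). PI fell by 1.38 ± 0.12, and SPL, which starts sporogenous tissue, fell by 1.64 ± 0.22. The early tapetum regulators DYT1 and AMS fell to 0.163, 0.480 and 0.186 CPM and to 0.489, 0 and 0.0618 CPM in YFP-POS, against 2.86, 2.57 and 1.77 CPM and 4.10, 2.57 and 5.21 CPM in ALL-SORT.

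The 3 genes called higher in that list were EMS1, PTL and LAP6. EMS1, a receptor kinase that fixes tapetal cell fate, had 201, 175 and 180 CPM in YFP-POS, against 108, 77.2 and 97.1 CPM in ALL-SORT (log2 fold change 0.94 ± 0.09, adjusted p = 2.32e-06). PTL, a trihelix factor of perianth boundaries, and LAP6, a polyketide synthase of the pollen wall, had log2 fold changes of 1.14 ± 0.14 and 0.73 ± 0.17.

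**Figure D4:**
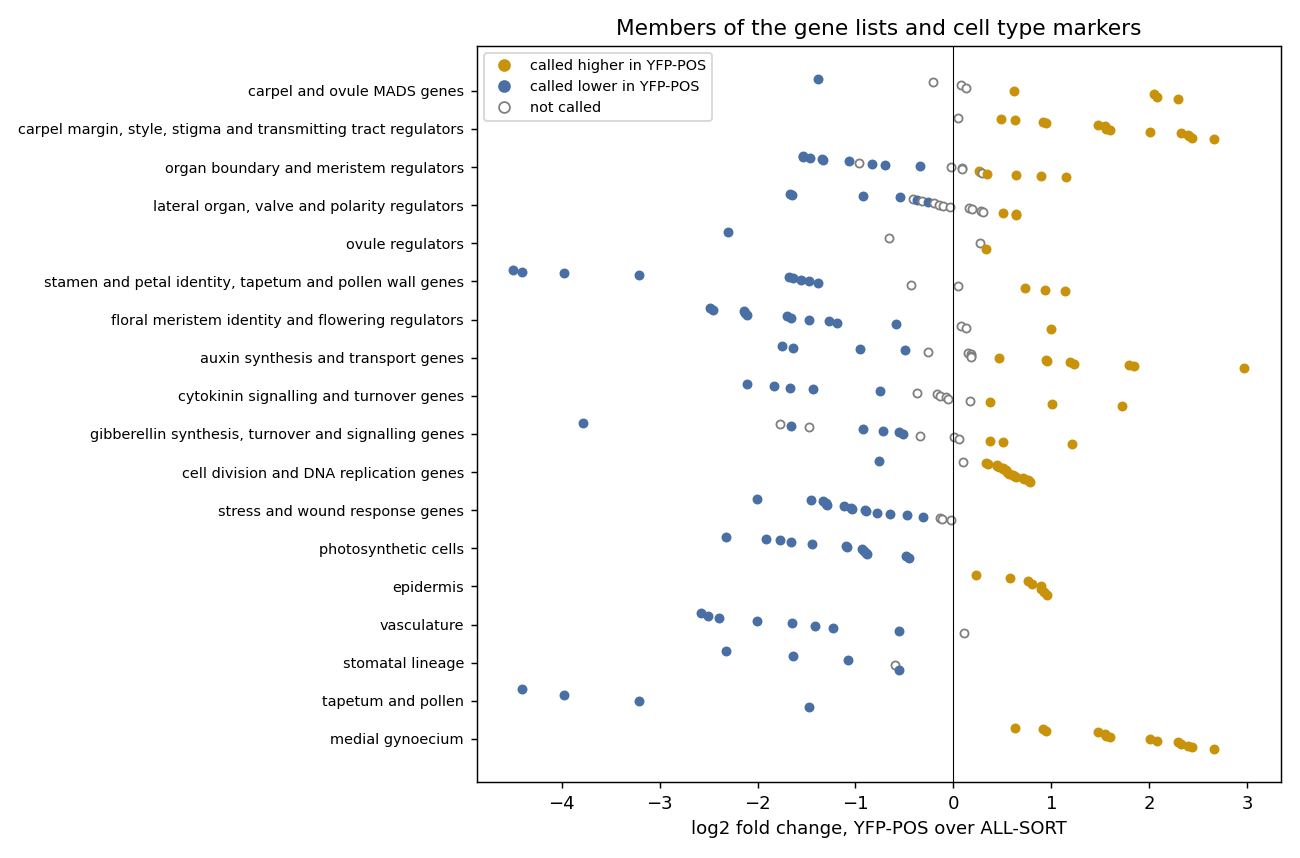
Each point is the log2 fold change of YFP-POS over ALL-SORT for 1 tested member of a gene list or cell type marker list, drawn as gold when called higher, blue when called lower and open when not called. All 14 medial gynoecium markers and all 8 epidermis markers lie right of 0, and all 13 photosynthetic markers lie left of 0.

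Most cell division and DNA replication genes rose by small amounts. With the replicate number in the fit, 19 of 21 were called higher and 1 lower, and the median was 0.55. The shares of all genes in that fit were 20.1% higher and 23.8% lower. Without the replicate number, 5 of the list were called higher and the median was also 0.55. That second fit called 3082 of the 18441 genes, 27.3% of them higher. With ALL-SORT replicate 4 added to the fit without the replicate number, 2 of the list were called higher. CYCB1;2, a mitotic cyclin, had 248, 193 and 206 CPM in YFP-POS, against 163, 117 and 125 CPM in ALL-SORT (log2 fold change 0.64 ± 0.08, adjusted p = 3.32e-05). KN, the syntaxin of the cell plate, which overlaps AT1G08550, had 350, 188 and 252 CPM in YFP-POS, against 225, 107 and 170 CPM in ALL-SORT. Its groups overlapped although each pair had the higher value in YFP-POS, and its adjusted p was 6.26e-05 with and 0.186 without the replicate number. KN averaged 227 CPM in YFP-NEG replicates 1 to 3, above its ALL-SORT mean of 168 CPM. The whole list summed to 2487 to 2994 CPM in YFP-POS, 1674 to 2123 CPM in ALL-SORT and 1739 to 2083 CPM in YFP-NEG.

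The helicase subunits MCM2 to MCM7, which open DNA for replication, rose by 0.55 ± 0.08 to 0.77 ± 0.09. CYCD3;1, a cyclin of cell cycle entry, was the 1 gene called lower, with 66.4, 83.2 and 90.6 CPM in YFP-POS, against 124, 129 and 137 CPM in ALL-SORT (log2 fold change -0.76 ± 0.09, adjusted p = 1.44e-05). Its relative CYCD3;2 was not called.

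Genes that respond to stress and wounding, which protoplast preparation is known to induce, were lower in the reporter cells although both groups had been sorted. Of 18 tested, 0 were called higher and 15 lower, against 20.1% and 23.8% of all genes tested. The list median was -0.97. The summed level was 3863, 5080 and 6527 CPM in YFP-POS, against 7694, 10320 and 10290 CPM in ALL-SORT. It was 9571 to 12660 CPM in YFP-NEG and 188 to 348 CPM in NO-SORT. ALL-SORT replicate 4, at 2318 CPM, lay below all 3 YFP-POS libraries. With it added and no replicate number in the fit, edgeR called 0 of the 18 genes (2 had an unadjusted p under 0.05) and the median was -0.64, against 11 lower and -0.90 in the fit without the replicate number on replicates 1 to 3. WRKY40, a transcription factor of wounding and defence, had 45.6, 72.3 and 125 CPM in YFP-POS, against 241, 303 and 339 CPM in ALL-SORT (log2 fold change -2.01 ± 0.14, adjusted p = 1.6e-07), and 0.410 CPM on average in NO-SORT.

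ZAT10, a zinc-finger repressor, and TCH4, a touch-induced cell wall enzyme, fell, with log2 fold changes of -1.29 ± 0.10 and -1.30 ± 0.10. The heat factor HSFA2, the jasmonate enzyme OPR3 and the calmodulin-like TCH2 were not called. HSP101, a heat-induced chaperone, had 319, 214 and 718 CPM in YFP-POS, against 473, 356 and 710 CPM in ALL-SORT, and its adjusted p was 0.00608 with and 0.586 without the replicate number. Time in digestion and sorting is not given per group, and the part of handling in any of the differences was not tested.

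Markers of other cell types moved with the comparison, beside all-gene shares of 20.1% called higher and 23.8% lower. Without the replicate number the fit called 3082 of the 18441 genes, 27.3% of them higher. All 13 photosynthetic markers were called lower (11 without the replicate number). Their summed levels were 4307, 5128 and 4959 CPM in YFP-POS, against 7417, 10420 and 8819 CPM in ALL-SORT. RBCS2B, a small subunit of the carbon-fixing enzyme Rubisco, fell by 2.32 ± 0.18, and PSAF, a photosystem subunit, by 0.45 ± 0.09. PSAF had an adjusted p of 0.0781 without the replicate number. Of 9 tested vasculature markers 8 were called lower (3 without the replicate number), with summed levels of 117, 114 and 172 CPM in YFP-POS, against 214, 213 and 351 CPM in ALL-SORT. SUC2, the phloem sucrose carrier, had 2.83, 3.92 and 18.2 CPM in YFP-POS, against 12.6, 17.6 and 59.3 CPM in ALL-SORT. Its ranges overlapped, with replicate 3 high in both groups, and its adjusted p was 3.19e-07 with and 0.105 without the replicate number.

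All 8 epidermis markers were called higher, against 20.1% of all genes tested. The marker sums were 2815, 3417 and 3622 CPM in YFP-POS, against 1576, 2067 and 2086 CPM in ALL-SORT. PDF2, a homeobox gene of the outer cell layer, rose by 0.95 ± 0.09 and DCR, a cutin enzyme, by 0.92 ± 0.10. ALL-SORT replicate 4, at 4074 CPM, lay above all 3 YFP-POS libraries. With it added and no replicate number in the fit, edgeR called 0 of the 8 markers (0 had an unadjusted p under 0.05) and the median was 0.44, against 6 higher and 0.84 without the replicate number on replicates 1 to 3. The summed epidermis level was 1070 to 1314 CPM in YFP-NEG and 3015 to 4824 CPM in NO-SORT. Tapetum and pollen markers summed to 0.720 to 2.28 CPM in YFP-POS, against 8.31 to 13.6 CPM in ALL-SORT. AMS and ACOS5 were at 0 in YFP-POS replicate 2. Only 4 of these 8 markers were tested, and all 4 were called lower (3 without the replicate number). Of 5 tested stomatal markers 4 were called lower (2 without the replicate number), against 23.8% of all genes tested. The stomatal sums were 12.2 to 30.5 CPM in YFP-POS, against 30.1 to 46.0 CPM in ALL-SORT. The part of these cell types in the gene changes above was not tested.

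**Figure D5:**
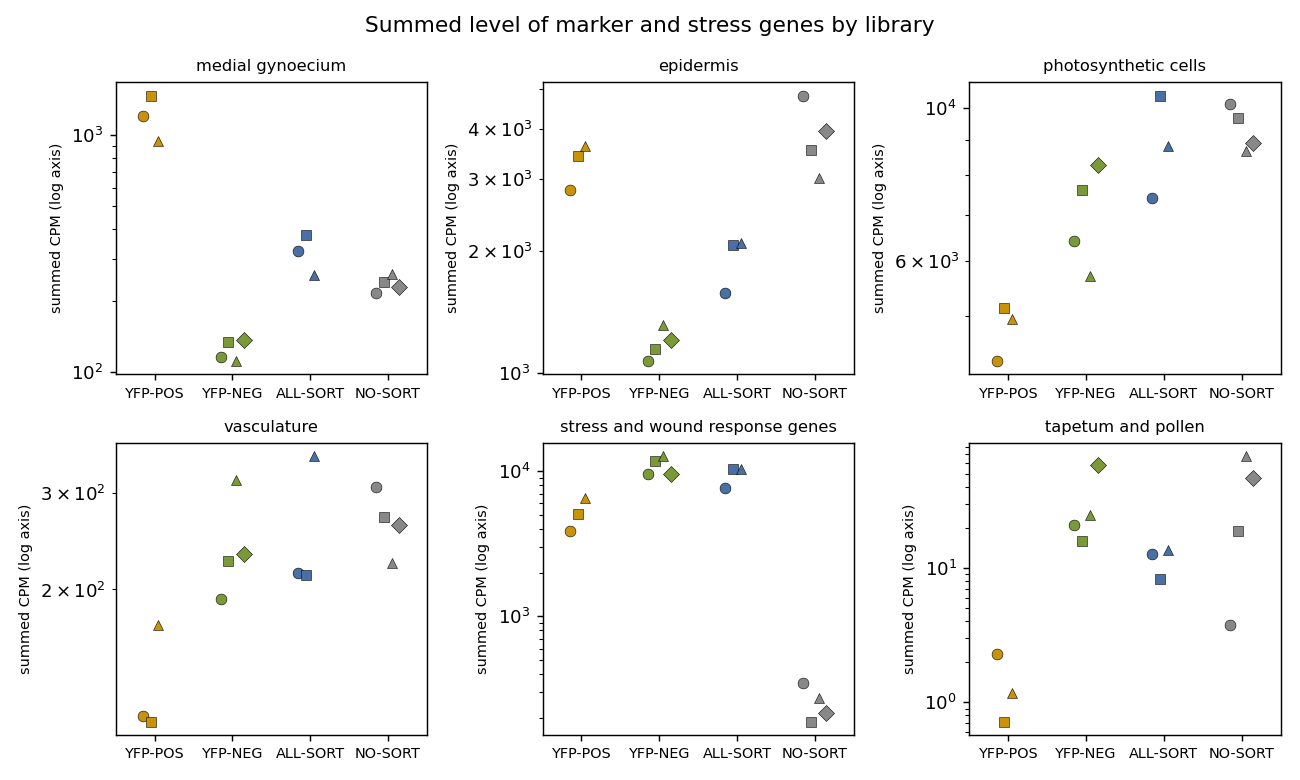
Each point is the summed CPM (log axis) of a list of marker or stress genes in 1 library of YFP-POS, YFP-NEG, ALL-SORT (replicates 1 to 3) or NO-SORT; symbols mark replicate numbers 1 to 4. YFP-POS lies above ALL-SORT for medial gynoecium and epidermis markers and below it in the other panels, and NO-SORT is far below all sorted groups for stress genes.

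ALL-SORT did not always lie between the 2 reporter classes. By group means over replicates 1 to 3, it was above both YFP-POS and YFP-NEG for 3129 of the 18441 genes tested (17%), between them for 10932 and below both for 4380. It was above both for all 13 photosynthetic markers and for 9 of 19 lateral organ and polarity regulators (47.4%), and it was below both for 11 of 21 cell division genes. RBCS1A averaged 1680 CPM in YFP-POS, 2101 CPM in YFP-NEG and 3125 CPM in ALL-SORT. All 14 medial gynoecium markers and all 8 epidermis markers had ALL-SORT between the 2 classes. The libraries are the same as in the comparison above, and these counts describe the means only, with no test.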

How the data were processed

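RNA was sequenced from strand-specific libraries in single-end runs of 125 cycles, per the labels' protocols. The authors deposited 2 tables of raw counts per locus with 1 column for each library, so the lanes had been combined, in a way not given in the sources used here. The submitters' processing notes name FastQC, TopHat2 2.0.10, HTSeq, edgeR, DESeq2, Cufflinks 2.2.1 and the build TAIR10, with no roles. Whether reads were counted by strand is not given in the sources used here, so reads of overlapping genes may be mixed. Besides those named as overlapping in the text, ALC, SHI, KAN1, REV, TSO1, AMS, TOE3, ARR9, CYCD3;1, CYCD3;2, MCM7, WRKY40, HSP101 and TCH2 overlap other annotated loci. The tables were joined by locus. Of 33602 loci, 32823 (97.7%) matched the RefSeq annotation of TAIR10.1, which gave symbols, overlaps and the sequences.

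The comparison was fitted by quasi-likelihood in edgeR 4.0.16 (glmQLFit and glmQLFTest, R 4.3.3), with terms for replicate number and group on 6 libraries, which leaves 2 residual degrees of freedom per gene before the spread is shared over genes. TMM scaling, filterByExpr at its defaults and Benjamini-Hochberg adjustment over all genes tested were used. Calls needed an adjusted p below 0.05, and all adjusted p-values come from this test. Each standard error is the absolute log2 fold change over the root of its F statistic. Levels are CPM after TMM scaling over all 15 libraries. The common biological coefficient of variation was 10.3% with the replicate number and 21.1% without it. The labels call the replicates biological and do not say whether they came from separate plants or days. The pairing by number was fixed in the design of the comparison, and the correlations of same-numbered libraries are given beside it.

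The genes and lists were chosen with earlier results of these data known. Named genes were SHP2, AP1 and CAL, the 12 largest called changes in each direction with the same sign in all 3 pairs, group ranges that did not overlap and at least 10 CPM in the higher group, and list members. The listed symbol A9 matched no locus. The values of 1 member of the auxin list are not reported here. Other settings tried were scaling by RLE, by upper quartiles or by library totals, other low-count filters, DESeq2 1.42.0, limma-voom 3.58.1, no replicate term, ALL-SORT replicate 4 added, all 15 libraries in 1 fit, removal of organelle loci, a limit of 0.01 on adjusted p, and pairs or libraries left out in turn. The scripts were tested on simulated data.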

Additional observations from a re-analysis of the deposited data

How the results depend on the processing

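SHP2, AP1, CAL and the 12 largest changes in each direction kept their direction and their call under every alternative that was run. RLE, upper-quartile and library-total scaling, both other low-count filters, DESeq2, limma-voom and leaving out organelle loci kept all counts of calls within 1.5 times, with 43.1% to 48.2% of calls higher in YFP-POS against 45.8%. Without the replicate block, 3082 genes were called, 840 higher and 2242 lower (27.3% higher), and all 3082 were also called with it. With ALL-SORT replicate 4 added and no block, 2598 were called, 631 higher and 1967 lower, with 1345 at least 2-fold lower. In that fit the list medians were 1.68 for carpel margin regulators, -0.41 for cytokinin genes and -0.64 for stress genes. The replicate block with all 15 libraries called 5169 genes, 1639 higher, and gave the cytokinin list a median of -0.35. An adjusted p under 0.01 left 2253 genes higher. With no low-count filter the medians of boundary and ovule regulators were -0.335 and -0.647. The causes of these shifts were not tested. Leaving out a pair, or a single library without the block, gave 1676 to 7991 calls, with 350 to 3920 higher and 1326 to 4071 lower. Changes of at least 2-fold numbered 1260 to 2527, with 206 to 395 higher and 1042 to 2132 lower. List medians ranged over 1.37 to 1.73 for carpel margin, -0.30 to -0.072 for boundary, 0.042 to 0.46 for auxin, -0.45 to -0.026 for cytokinin and 0.39 to 0.72 for cell division genes. The single pair whose loss moved the total by over 1.5 times was pair 2 (5121 calls). In fits that leave 1 library out, the spread is shared over genes. Genes of a few counts in YFP-POS, such as ENODL20 and ABCB15, have folds limited by counting error.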

Other observations

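In the SWEET and UMAMIT transporter families most tested members were called lower in YFP-POS than in ALL-SORT. Most ABCB and ABCG transporter genes were not called lower, with 6 higher and 3 lower of 19 and 8 higher and 9 lower of 28 tested. At least 2-fold, however, 8 ABCG genes were lower and 2 higher, and 2 ABCB genes were lower and 3 higher. The decrease was not confined to SWEET and UMAMIT genes. Of 13 tested CNGC channel genes 8 were lower and 1 higher, and of 10 PUP transporter genes 5 were lower and 0 higher. These families were chosen after their values were seen, so no test is given. Of 11 tested SWEET sugar exporters, 10 were called lower and 9 of them at least 2-fold, and the median log2 fold change was -2.24. SWEET14 had 1.63, 2.80 and 5.56 CPM in YFP-POS, against 8.43, 9.6 and 30.2 CPM in ALL-SORT, and SWEET2 was the 1 gene without a call, with a log2 fold change of -0.21 ± 0.20. Of 25 tested UMAMIT genes, which encode amino acid exporters and their relatives, 17 were called lower, with a median of -1.58. Over all genes tested, 23.8% were called lower and 11% at least 2-fold lower. Vasculature markers fell in the same libraries, and the part of vascular cells in these families was not tested.

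The ARGONAUTE genes, which bind small RNAs, moved the other way: 6 of 9 tested were called higher and 0 lower, with a median of 0.51. AGO5, known from the germ line of the ovule, had 283, 295 and 295 CPM in YFP-POS, against 91.1, 82.7 and 79.8 CPM in ALL-SORT (log2 fold change 1.74 ± 0.09, adjusted p = 1.6e-08). AGO1, AGO4 and AGO6 had log2 fold changes of 0.39 ± 0.09, 0.70 ± 0.09 and 0.94 ± 0.12, while AGO7, AGO9 and AGO10 were not called. Over all genes tested, 20.1% were called higher. The family was chosen after its values were seen.

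Of 37 tested loci of the mitochondrial genome, 12 were called higher in YFP-POS and 9 of them (24.3%) at least 2-fold, against 1.89% of all genes tested. None of the 79 tested chloroplast loci rose at least 2-fold, and 4 were called higher and 16 lower. The all-gene shares were 20.1% called higher and 23.8% lower. ATMG00090 had 116, 143 and 168 CPM in YFP-POS, against 51.5, 48.5 and 101 CPM in ALL-SORT (log2 fold change 1.1 ± 0.13, adjusted p = 1.2e-05). The locus ATMG00020 was not called, at 6813, 6280 and 3882 CPM in YFP-POS, against 4642, 4446 and 8323 CPM in ALL-SORT. Organelle loci made up 1.14% to 1.38% of counts in YFP-POS and 1.17% to 1.58% in ALL-SORT replicates 1 to 3.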
